A study of Mus musculus with 6 samples.

Results

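The genes of the glutathione and thioredoxin antioxidant systems were followed in germinal vesicle (GV) oocytes of mice with a truncated basonuclin 1. Members were chosen by symbol, as the glutathione peroxidases, peroxiredoxins, superoxide dismutases, catalase, glutathione S-transferases, glutaredoxins, thioredoxins and thioredoxin reductases, the enzymes of glutathione synthesis and recycling, and *Nfe2l2*, *Keap1*, *Nqo1* and *Srxn1*, and 55 of the 17577 listed genes matched. The 6 libraries came from oocytes of 12-week-old C57BL/6 J mice, 3 carrying on both chromosomes a frameshift allele that truncates basonuclin 1 (*Bnc1*tr/tr) and 3 of the wild type (WT). The allele is not restricted to the oocyte and is present in granulosa and other ovarian cells too. Per the methods of the study, all mice, both genotypes alike, had received pregnant mare serum gonadotropin, oocytes were released by puncture of antral follicles, littermates were compared, and cDNA was made from a single oocyte by a modified Smart-seq2 procedure with preamplification. Values are FPKM, fragments mapped to a transcript, divided by its length in kilobases and by the mapped total in M (mega), so that levels of different genes are compared per length. The study describes its replicates as biological, but the labels do not tie the libraries to mice, and the p-values measure the spread between these samples.

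Hydrogen peroxide and lipid peroxides are reduced in the cell by enzymes that draw electrons from glutathione or thioredoxin. Glutathione is built by glutamate-cysteine ligase and glutathione synthetase, is oxidised by glutathione peroxidases, and is returned to its reduced form by glutathione reductase. Peroxiredoxins are reduced by thioredoxin, which is in turn reduced by thioredoxin reductase, while glutathione S-transferases couple glutathione to reactive compounds. The transcription factor NRF2, encoded by *Nfe2l2* and held in check by KEAP1, drives many of these genes through antioxidant response elements. The oocyte is known to store large amounts of glutathione, and the peroxidase GPX4 is known for removing lipid peroxides and so holding back ferroptosis.

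Several of these enzymes are selenoproteins, in which a TGA codon inside the reading frame is read as selenocysteine. The codon at the active site of the glutathione peroxidases is shown because members that differ at it are compared later on. Each line gives the coding strand 5′ to 3′, taken from the GENCODE M21 annotation of GRCm38, with the active-site codon in capitals.
Gpx1: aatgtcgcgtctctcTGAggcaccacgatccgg
Gpx2: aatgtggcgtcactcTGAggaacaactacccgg
Gpx3: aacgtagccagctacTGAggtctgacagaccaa
Gpx4: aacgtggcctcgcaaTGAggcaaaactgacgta
Gpx6: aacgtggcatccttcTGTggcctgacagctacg
Gpx7: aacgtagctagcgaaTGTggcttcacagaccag
Txnrd1: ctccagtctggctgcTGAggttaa
The codon lies at chr9:108339451-108339453 (plus strand) in *Gpx1*, at chr12:76795256-76795258 (minus strand) in *Gpx2*, at chr10:80054737-80054739 (plus strand) in *Gpx4* and at chr13:21313777-21313779 (plus strand) in *Gpx6*. In *Txnrd1* the TGA is codon 612 of 613, so that a glycine codon lies between it and the stop codon, at chr10:82896037-82896039 (plus strand). *Gpx6* and *Gpx7* carry the cysteine codon TGT at this position.

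In all, 43 members averaged 1 FPKM or more across the libraries and were tested, and 12 did not. A gene was called higher or lower at a Benjamini-Hochberg adjusted p under 0.05 (limma, adjusted over all 10560 tested genes) and an absolute log2 fold change over 0.5. Of the 43 tested members, 16 were higher and 2 were lower in *Bnc1*tr/tr oocytes, and 25 were not called. Among all tested genes, 24.1% were called higher, 7.68% lower and 31.8% in either direction, against 37.2%, 4.65% and 41.9% of the tested members. The median log2 fold change was 0.23 over the tested members and 0.15 over all tested genes. The libraries of both groups did not overlap for 22 members (51.2%), against 46.8% of all tested genes. In 7 tested members, namely *Cat*, *Gpx2*, *Gpx7*, *Gsr*, *Gsta1*, *Gsta3* and *Keap1*, the WT mean was under 1 FPKM, so they passed the limit on low values only through the *Bnc1*tr/tr libraries, and 6 of them were called higher. The counts over tested members are therefore given as a description.

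**Figure D1:**
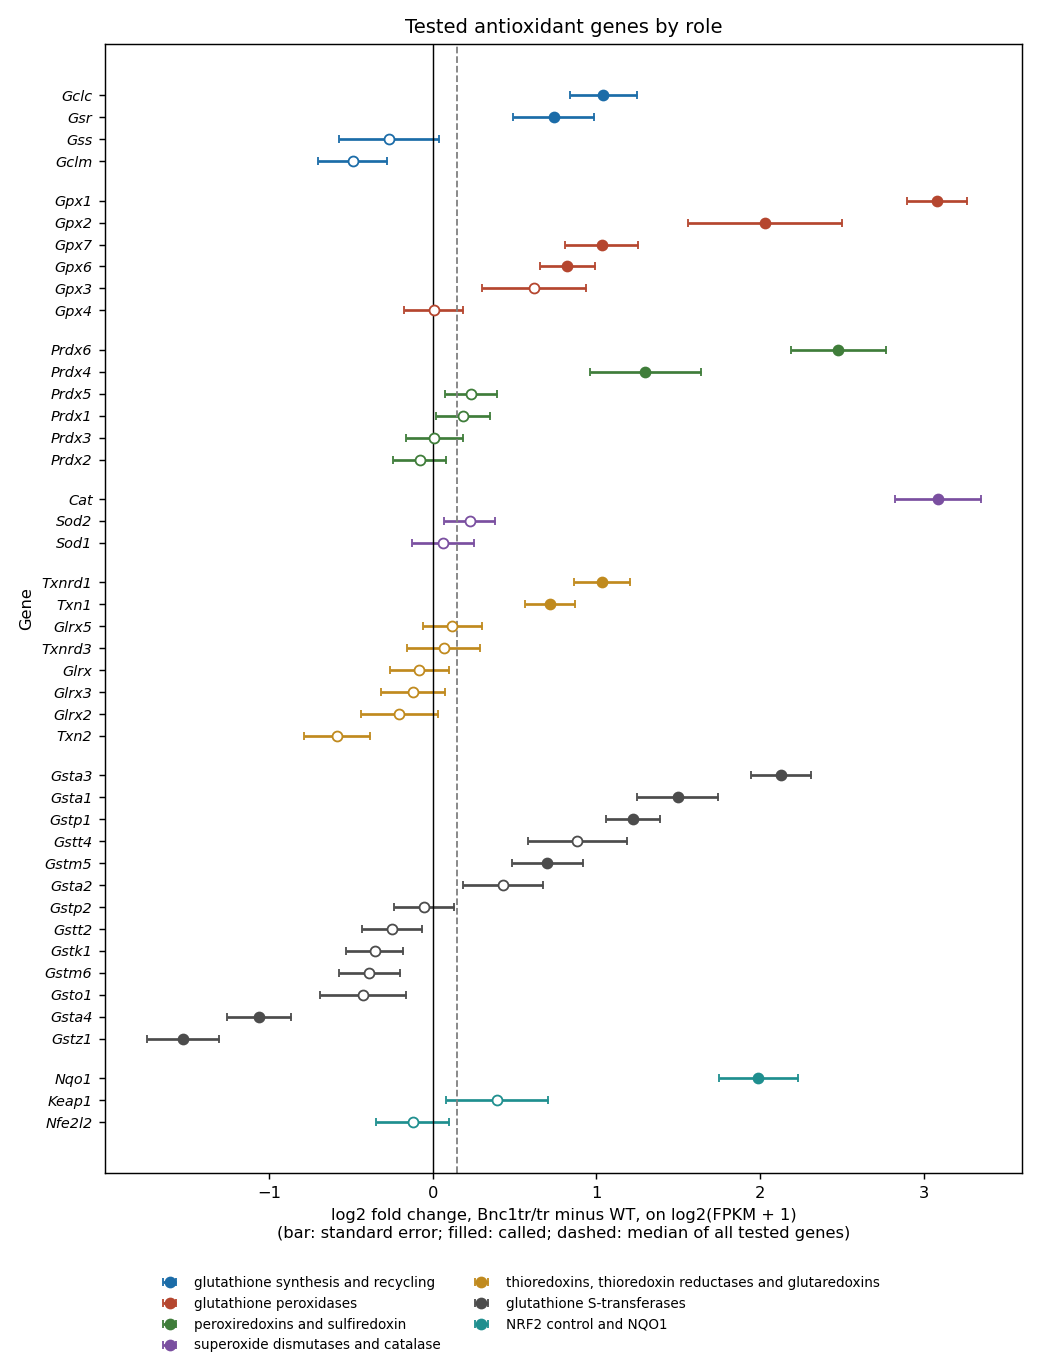
Log2 fold change (horizontal axis, *Bnc1*tr/tr minus WT on the log2(FPKM + 1) scale) of each of the 43 tested members (vertical axis), grouped by role, with standard error bars, filled points for called members and a dashed line at the median of all tested genes (0.15). *Cat* and *Gpx1* lie farthest to the right at 3.08, *Gstz1* farthest to the left at -1.53, and *Gpx4* lies at 0.01.

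The *Bnc1* transcript itself measured 9.04, 6.51 and 5.83 FPKM in *Bnc1*tr/tr and 13.17, 12.54 and 16.23 FPKM in WT (log2 fold change -0.89 ± 0.20 (SE), adjusted p = 0.0090, n = 3 per group). The allele is a frameshift, so its transcript need not be lost. Depth, estimated from the steps between low FPKM values, was 13.3 to 17.2 M fragments in *Bnc1*tr/tr and 15.1 to 21.5 M in WT, at which 3 fragments on a transcript of 1 kb equal 0.14 to 0.226 FPKM. The 10 oocyte markers were all present and summed to 8139.8 to 9520.8 FPKM in *Bnc1*tr/tr and 6763.9 to 10609.2 FPKM in WT. Single markers differed in both directions. *Zp2*, *Zp3* and *Nlrp5* were lower in every *Bnc1*tr/tr library than in any WT library, and *Bmp15*, *Oosp1* and *Mos* were higher. Markers of other ovarian cells were low beside the oocyte markers, but they differed between libraries. The 7 immune and blood markers summed to 21.85, 61.25 and 1.09 FPKM in turn in *Bnc1*tr/tr replicates 1, 2 and 3, and to 1.4 to 2.9 FPKM in WT, with *Ptprc* at 0 in *Bnc1*tr/tr replicate 3 and in all WT libraries. The granulosa and cumulus list, of which 10 of 12 genes were listed, summed to 43.3 to 60.5 FPKM against 22.9 to 39.8 FPKM. Its genes did not move together, and *Foxl2* was at or near 0 throughout. *Fshr* lay at 4.54 to 5.83 FPKM against 0 to 0.74 FPKM. *Cyp19a1* lay at 27.49 to 44.41 FPKM against 17.41 to 28.98 FPKM. *Nr5a2* and *Kitl* were also higher in every *Bnc1*tr/tr library than in any WT library. In contrast, *Inha* lay at 0.09 to 1.81 FPKM against 0.04 to 6.78 FPKM. *Hsd17b1* lay at 0 to 0.38 FPKM against 0 to 1.43 FPKM, and *Fst* at 0 to 0.16 FPKM against 0.04 to 0.63 FPKM. The theca and stroma list (7 of 8 listed) summed to 6.5 to 10.3 FPKM against 1.7 to 2.3 FPKM, and the endothelial list (3 of 4 listed) to 3.7 to 6.7 FPKM against 7.62 to 10.04 FPKM. The endothelial genes did not move together either. *Pecam1* lay at 3.16 to 5.13 FPKM against 7.55 to 9.92 FPKM, *Kdr* at 0.53 to 1.54 FPKM against 0.07 to 0.12 FPKM, and *Cdh5* at or near 0. The part of all these other cell types in the results below was not tested. Values without single libraries are given where they matter. They cannot address markers that were higher in every *Bnc1*tr/tr library, such as *Fshr* and *Dcn* (4.93 to 6.95 FPKM against 1.36 to 2.02 FPKM).

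The glutathione peroxidases use glutathione to reduce peroxides, and 4 of the 6 tested were higher in *Bnc1*tr/tr oocytes, with none lower. Of all tested genes, 24.1% were called higher and 7.68% lower. Among the 4, *Gpx2* and *Gpx7* had WT means under 1 FPKM and were tested only through the *Bnc1*tr/tr libraries, so the count is a description. *Gpx1*, the cytosolic glutathione peroxidase (chr9:108339080-108340342), measured 203.51, 157.86 and 138.59 FPKM in *Bnc1*tr/tr (replicates in order, here and below) and 18.96, 19.25 and 17.62 FPKM in WT. Every mutant library lay far above every WT library, and the group means differed 8.96-fold (log2 fold change 3.08 ± 0.19 (SE), adjusted p = 6.7e-06). By level within each library, *Gpx1* ranked 611, 882 and 985 of the 17577 genes in *Bnc1*tr/tr and 3763, 3641 and 3616 in WT. Of the immune and blood markers, the macrophage gene *Cd68* was highest in *Bnc1*tr/tr replicate 1 (12.2 FPKM, against 0.96 to 3.64 FPKM in the other libraries) and *Lyz2*, of macrophages and granulocytes, in *Bnc1*tr/tr replicate 2 (47.97 FPKM, against 5.81 FPKM in replicate 1 and 0 in the others). The log2 fold change of *Gpx1* was 2.93 without *Bnc1*tr/tr replicate 1 (adjusted p = 4.8e-05) and 3.11 without replicate 2 (adjusted p = 0.00015).

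*Gpx4* behaved otherwise. Its level was 148.64, 161.88 and 132.13 FPKM in *Bnc1*tr/tr and 164.59, 156.99 and 121.71 FPKM in WT, and the groups overlapped fully (log2 fold change 0.01 ± 0.18 (SE), adjusted p = 0.99). Of its 31-base words, 38.94% were shared with other genes, chiefly the pseudogene *Gpx4-ps2*, so that the level of *Gpx4* is uncertain, whereas *Gpx1* shared none.

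*Gpx6*, known from the olfactory epithelium, followed *Gpx4* in abundance in WT and *Gpx4* and *Gpx1* in *Bnc1*tr/tr, with 93.75, 74.21 and 88.43 FPKM against 44.94, 51.61 and 46.80 FPKM (log2 fold change 0.82 ± 0.17, adjusted p = 0.0058). *Gpx7*, an endoplasmic reticulum member, was low in both groups, at 1.89, 2.21 and 2.80 FPKM against 1.08, 0.61 and 0.23 FPKM (log2 fold change 1.03 ± 0.22, adjusted p = 0.0076). *Gpx2*, known from the gut epithelium, was listed at 0 in all 3 WT libraries and at 0.62, 5.83 and 5.14 FPKM in *Bnc1*tr/tr (adjusted p = 0.011), and *Bnc1*tr/tr replicate 1 was the low one. *Gpx2* overlaps *Fntb* on the opposite strand and the libraries do not record strand, so reads of the pair cannot be told apart. *Gpx3*, the plasma glutathione peroxidase, measured 62.52, 30.03 and 34.29 FPKM against 32.60, 29.86 and 17.45 FPKM and was not called (log2 fold change 0.62 ± 0.32, adjusted p = 0.17), and its log2 fold change was 0.31 without *Bnc1*tr/tr replicate 1, the high library. *Gpx5* and *Gpx8* stayed under 1 FPKM in every library. Of the 7 members with a TGA codon inside the reading frame, 6 were tested, and *Gpx1*, *Gpx2* and *Txnrd1* rose. *Gpx3*, *Gpx4* and *Txnrd3* were not called. The share called higher among all tested genes was 24.1%. Since *Gpx2* was tested only through the *Bnc1*tr/tr libraries, this count too is a description.

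The makeup of the family changed accordingly. Summed over all glutathione peroxidases, FPKM was 511.8, 432.0 and 401.4 in *Bnc1*tr/tr and 262.3, 258.4 and 203.8 in WT. *Gpx4* held 62.7%, 60.8% and 59.7% of that sum in WT and 29.0%, 37.5% and 32.9% in *Bnc1*tr/tr, while *Gpx1* held 7.23%, 7.45% and 8.65% in WT and 39.8%, 36.5% and 34.5% in *Bnc1*tr/tr. The share of *Gpx6* was 17.2% to 22.0% in *Bnc1*tr/tr and 17.1% to 23.0% in WT.

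**Figure D2:**
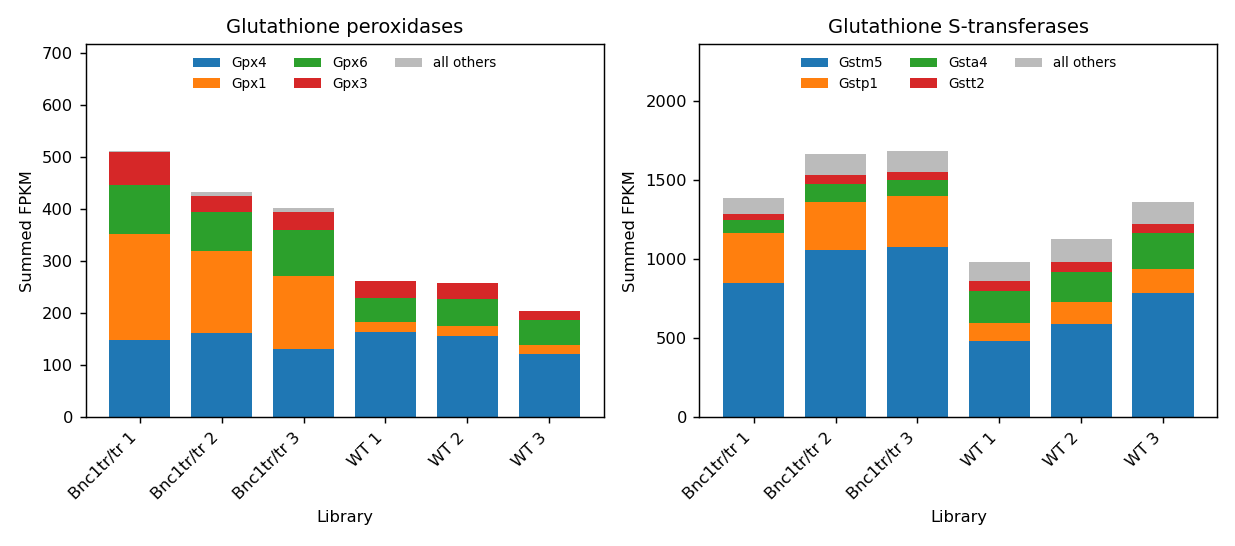
Summed FPKM (vertical axis) of the glutathione peroxidases (left) and the glutathione S-transferases (right) in each of the 6 libraries (horizontal axis), stacked by gene. The *Gpx4* block is of like height in all libraries (121.71 to 164.59 FPKM) while that of *Gpx1* is 138.59 to 203.51 FPKM in *Bnc1*tr/tr and 17.62 to 19.25 FPKM in WT, and the *Gsta4* block is larger in WT.

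Catalase, which splits hydrogen peroxide without glutathione or thioredoxin, was near the floor in WT oocytes. *Cat* (chr2:103453904-103485153) measured 0.29, 0.13 and 0.08 FPKM in WT, near the level of a few fragments, and 14.23, 6.80 and 7.06 FPKM in *Bnc1*tr/tr. All mutant libraries were above all WT libraries (log2 fold change 3.08 ± 0.26 (SE) on the log2(FPKM + 1) scale, adjusted p = 4.7e-05), and without *Bnc1*tr/tr replicate 1, which had the highest value, the log2 fold change was 2.77 (adjusted p = 5.8e-05). The superoxide dismutases, which make hydrogen peroxide from superoxide, were not called. *Sod1*, the cytosolic enzyme and the most abundant member, measured 1881.06, 2692.75 and 2283.45 FPKM against 2075.38, 1983.88 and 2451.86 FPKM, with full overlap (log2 fold change 0.07 ± 0.19, adjusted p = 0.83). *Sod2*, the mitochondrial enzyme, measured 23.96 to 26.29 FPKM in *Bnc1*tr/tr and 20.33 to 23.35 FPKM in WT (log2 fold change 0.23 ± 0.16, adjusted p = 0.30). The extracellular *Sod3* was at most 0.03 FPKM.

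Of the 6 tested peroxiredoxins, 2 were higher (33.3%, against 24.1% of all tested genes), and the most abundant ones, *Prdx1* and *Prdx2*, were not called. *Prdx6*, the peroxiredoxin that works with glutathione in place of thioredoxin, measured 69.95, 38.24 and 42.70 FPKM in *Bnc1*tr/tr and 11.06, 8.05 and 5.46 FPKM in WT, a 6.14-fold difference of the means (log2 fold change 2.48 ± 0.29, adjusted p = 0.00028). Without *Bnc1*tr/tr replicate 1, the highest library, its log2 fold change was 2.22 (adjusted p = 0.0010). *Prdx4*, the peroxiredoxin of the endoplasmic reticulum, measured 19.69, 8.11 and 11.64 FPKM against 3.08, 3.84 and 7.11 FPKM (log2 fold change 1.30 ± 0.34, adjusted p = 0.018). The groups lay close together here, at 8.11 and 7.11 FPKM, and the call was lost without *Bnc1*tr/tr replicate 1 (0.98, adjusted p = 0.058), without WT replicate 1 (1.09, adjusted p = 0.053) and without WT replicate 2 (adjusted p = 0.060).

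*Prdx1*, the main cytosolic peroxiredoxin, measured 1255.35, 1316.54 and 1551.06 FPKM in *Bnc1*tr/tr and 1117.23, 1236.34 and 1269.31 FPKM in WT (log2 fold change 0.18 ± 0.17, adjusted p = 0.44). *Prdx2* lay at 929.39 to 1145.51 FPKM against 1006.79 to 1124.39 FPKM (log2 fold change -0.08, adjusted p = 0.75). *Prdx3*, the mitochondrial member, lay at 20.66 to 25.95 FPKM against 20.65 to 26.39 FPKM (log2 fold change 0.01, adjusted p = 0.98). *Prdx5* was not called either, although its groups did not overlap, at 123.36 to 149.10 FPKM against 110.29 to 116.22 FPKM (log2 fold change 0.23, adjusted p = 0.30). *Srxn1*, sulfiredoxin, which repairs over-oxidised peroxiredoxins, was at most 0.07 FPKM in any library. Since *Prdx1* and *Prdx2* supplied most of the family's sum, *Prdx6* went from 0.220% to 0.462% of it in WT to 1.43% to 2.86% in *Bnc1*tr/tr.

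Both cytosolic partners of the thioredoxin system rose. *Txnrd1*, the reductase, measured 52.97, 38.89 and 47.45 FPKM in *Bnc1*tr/tr and 22.48, 21.49 and 22.02 FPKM in WT, a 2.11-fold difference of the means (log2 fold change 1.03 ± 0.17, adjusted p = 0.0020). *Txn1*, thioredoxin itself, measured 126.57, 126.14 and 121.02 FPKM against 70.60, 77.32 and 78.57 FPKM (log2 fold change 0.72 ± 0.15, adjusted p = 0.0071). Neither gene had overlapping groups, and the libraries within a group lay close together. *Txnrd1* overlaps *Eid3* on its own strand, and *Gm38560* and *Gm47073* on the opposite strand, which could all share its reads. Measured from the median of all genes, the log2 fold change of *Txn1* was 0.57, and with upper-quartile or median-ratio scaling of the libraries it was 0.44 (adjusted p = 0.064) and 0.497, neither of which was a call.

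The mitochondrial thioredoxin *Txn2* ran the other way, at 141.88, 115.61 and 111.60 FPKM in *Bnc1*tr/tr and 204.39, 210.05 and 144.54 FPKM in WT. The groups did not overlap, but WT replicate 3 came within a few FPKM of *Bnc1*tr/tr replicate 1 and the gene was not called (log2 fold change -0.58 ± 0.20, adjusted p = 0.054). *Txnrd3*, the reductase of the testis, lay at 10.08 to 16.98 FPKM against 11.63 to 15.56 FPKM (log2 fold change 0.07, adjusted p = 0.85). The mitochondrial *Txnrd2* was too low for a test, at 1.43, 0.95 and 0.41 FPKM against 0.36, 0.19 and 0.38 FPKM.

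The glutaredoxins, small enzymes that use glutathione to reduce protein disulfides, were not called. *Glrx* was the second most abundant member, at 1212.50, 1703.70 and 1281.38 FPKM in *Bnc1*tr/tr and 1476.38, 1479.73 and 1436.00 FPKM in WT (log2 fold change -0.08 ± 0.18, adjusted p = 0.77). *Glrx5*, which serves iron-sulfur cluster assembly, lay at 463.58 to 583.66 FPKM against 441.81 to 573.50 FPKM (log2 fold change 0.12, adjusted p = 0.66). *Glrx2* and *Glrx3* differed by -0.20 and -0.12 on the log2 scale (adjusted p = 0.55 and 0.68).

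Glutathione synthesis starts with glutamate-cysteine ligase, whose catalytic and modifier subunits were not alike. *Gclc*, the catalytic subunit, measured 4.65, 3.23 and 4.06 FPKM in *Bnc1*tr/tr and 1.12, 2.04 and 1.15 FPKM in WT (log2 fold change 1.04 ± 0.20, adjusted p = 0.0047). *Gclm*, the modifier subunit, measured 8.21, 9.04 and 14.17 FPKM against 13.71, 14.97 and 15.52 FPKM and was not called (log2 fold change -0.49 ± 0.21, adjusted p = 0.11). Mutant values thus lay above all WT values for the one and, except in *Bnc1*tr/tr replicate 3, below them for the other. *Gss*, glutathione synthetase, lay at 0.83 to 3.20 FPKM against 1.75 to 2.29 FPKM (log2 fold change -0.27, adjusted p = 0.54). *Gsr*, glutathione reductase, measured 3.29, 1.33 and 2.17 FPKM against 0.95, 1.24 and 0.56 FPKM. Its groups nearly touched, and a call at the edge of the threshold (log2 fold change 0.74 ± 0.25, adjusted p = 0.049) was lost in 11 alternative settings, with adjusted p up to 0.46.

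Of the 13 tested glutathione S-transferases, 4 were higher and 2 lower (30.8% and 15.4%, against 24.1% and 7.68% of all tested genes). Among the 4, *Gsta1* and *Gsta3* had WT means under 1 FPKM and were tested only through the *Bnc1*tr/tr libraries. The count is therefore a description. *Gstp1*, the pi-class enzyme, measured 319.95, 302.56 and 322.74 FPKM in *Bnc1*tr/tr and 118.13, 136.84 and 150.59 FPKM in WT, a 2.33-fold difference of the means (log2 fold change 1.22 ± 0.16, adjusted p = 0.00062). Its neighbour *Gstp2*, 2.38 kb away on chromosome 19, measured 27.81, 25.21 and 34.91 FPKM against 28.59, 34.55 and 27.81 FPKM, with full overlap (log2 fold change -0.05 ± 0.19, adjusted p = 0.86). The pair share many 31-base words (38.54% of those of *Gstp1* and 54.76% of those of *Gstp2*), so how reads were divided between them is uncertain.

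The alpha class held calls in both directions within a single cluster on chromosome 9. *Gsta4*, which conjugates lipid peroxidation products such as 4-hydroxynonenal, measured 78.81, 119.53 and 100.01 FPKM in *Bnc1*tr/tr and 200.14, 189.29 and 228.80 FPKM in WT, and fell by 1.06 on the log2 scale (SE 0.20, adjusted p = 0.0035). *Gsta1*, 21.3 kb away, was near the floor, at 2.49, 3.99 and 2.42 FPKM against 0, 0.56 and 0.70 FPKM (log2 fold change 1.496 ± 0.25, adjusted p = 0.0020). It shares 92.86% of its 31-base words with other genes, chiefly *Gm3776*, and is uncertain for that reason. *Gsta2*, 88.3 kb beyond *Gsta1*, was not called (log2 fold change 0.43, adjusted p = 0.21). It shares 60.72% of its words with other genes, with 44.66% in *Gsta1*, so the same limit holds for it. *Gsta3*, on chromosome 1, measured 4.46, 6.80 and 5.63 FPKM against 0.59, 0.52 and 0.40 FPKM (log2 fold change 2.13 ± 0.18, adjusted p = 4.8e-05). It shares few words (2.68%), but it overlaps the antisense gene *Gm28836*, from which its reads cannot be told apart without strand.

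*Gstz1*, the zeta-class enzyme of tyrosine breakdown, had the largest decrease among the tested members, with 6.39, 10.43 and 7.57 FPKM in *Bnc1*tr/tr and 22.72, 21.83 and 30.96 FPKM in WT. It fell by 1.53 on the log2 scale (SE 0.22, adjusted p = 0.00091). It overlaps *Pomt2* on the opposite strand, from which its reads cannot be told apart without strand. *Gstm5*, a mu-class enzyme and the most abundant transferase, measured 846.50, 1055.99 and 1076.36 FPKM against 481.04, 591.24 and 788.46 FPKM (log2 fold change 0.70 ± 0.22, adjusted p = 0.036). Although no mutant library overlapped WT, *Bnc1*tr/tr replicate 1 and WT replicate 3 lay close together, and the call was lost in 8 alternative settings, among them upper-quartile scaling (0.42, adjusted p = 0.22). *Gstm5* also overlaps the antisense gene *4933431E20Rik*, with the same limit on its reads.

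Of the other transferases, *Gstt4*, a theta-class gene, measured 7.34, 17.21 and 11.78 FPKM against 4.06, 6.11 and 7.60 FPKM and narrowly missed the threshold (log2 fold change 0.88 ± 0.30, adjusted p = 0.053). *Gstt2*, 9.28 kb from it, differed by -0.25 (adjusted p = 0.34). In the mu cluster of chromosome 3, *Gstm6* differed by -0.39 (adjusted p = 0.15), and *Gstm1*, *Gstm2*, *Gstm4* and *Gstm7* had means under 1 FPKM while *Gstm5*, 27.6 kb from *Gstm7*, was among the 6 most abundant members. *Gstk1*, the mitochondrial and peroxisomal kappa enzyme, and *Gsto1*, an omega-class enzyme, differed by -0.35 and -0.43 (adjusted p = 0.15 and 0.25), and *Gsto2*, *Gstt1* and *Gstt3* stayed under 1 FPKM in every library. Of the summed transferase FPKM, *Gsta4* held 16.8% to 20.4% in WT and 5.67% to 7.19% in *Bnc1*tr/tr, *Gstp1* held 11.0% to 12.1% and 18.2% to 23.0%, and *Gstm5* held 48.9% to 57.8% and 60.9% to 63.9%.

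*Nqo1*, a quinone reductase known as a target of NRF2, measured 29.46, 25.99 and 31.95 FPKM in *Bnc1*tr/tr and 4.87, 5.81 and 9.83 FPKM in WT. The mutant libraries lay close together and above all WT libraries, with a 4.26-fold difference of the means (log2 fold change 1.99 ± 0.24, adjusted p = 0.00032). The transcript of NRF2 itself did not follow. *Nfe2l2* measured 8.71, 8.83 and 13.52 FPKM against 11.58, 13.43 and 8.83 FPKM (log2 fold change -0.12 ± 0.22, adjusted p = 0.72). *Keap1* measured 2.67, 0.69 and 0.69 FPKM against 1.07, 0.52 and 0.47 FPKM (log2 fold change 0.39 ± 0.31, adjusted p = 0.37), with *Bnc1*tr/tr replicate 1 alone standing high. Transcript levels say nothing of the amount or activity of the NRF2 protein.

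**Figure D3:**
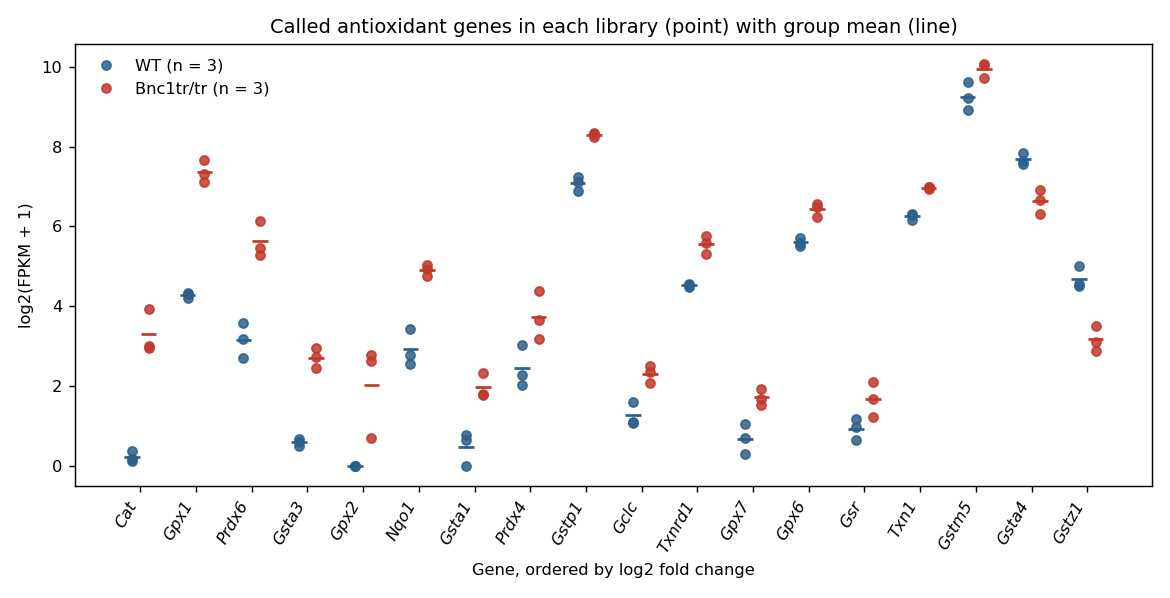
Level of the 18 called members (horizontal axis) as log2(FPKM + 1) (vertical axis), with a point for each library and a line at the group mean of 3 libraries. For none of these genes do the *Bnc1*tr/tr points (red) overlap the WT points (blue), and the genes with low levels, such as *Cat* and *Gpx2*, rise from near 0.

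Since NRF2 acts through the antioxidant response element, the promoters of the members were searched for its core, TGACNNNGC, on both strands. The window held the 250 bases before and 50 bases after a RefSeq start of each gene (GRCm38.p6). A match was found in 9 of the 49 members with a promoter entry (18.37%) and in 13.99% of all 27025 genes. Of the called members, *Gsta3*, *Txnrd1* and *Gstm5* held it, and *Gclc*, *Gsr*, *Gsta4* and *Prdx6* had no promoter entry and were not searched. Their matches are shown 5′ to 3′ in the direction of the gene, with the core in capitals.
Gsta3: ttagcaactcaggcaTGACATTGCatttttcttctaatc
Txnrd1: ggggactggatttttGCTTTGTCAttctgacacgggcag
Gstm5: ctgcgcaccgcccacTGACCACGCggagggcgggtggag
These windows lie at chr1:21240449-21240487, chr10:82859099-82859137 and chr3:107895797-107895835, all on the plus strand. The core begins 121, 92 and 42 bases before the start used for the search. For *Txnrd1* that start lies inside the gene (chr10:82833951-82897724), so its match is not before the first base of the gene. The other matches were in *Gclm*, *Prdx1*, *Sod1* and *Nfe2l2*, which were not called, and in *Gstm7* and *Srxn1*, which were too low for a test. A match is a stretch of letters and no evidence of binding.

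Within a library, the ratio of a pair of members does not depend on how the library was scaled, and ratios of related members were computed after their values had been seen. *Gpx1* over *Gpx4* was 1.37, 0.975 and 1.05 in *Bnc1*tr/tr and 0.115, 0.123 and 0.145 in WT. *Txn1* over *Txn2* was 0.892, 1.09 and 1.08 against 0.345, 0.368 and 0.544. *Gstp1* over *Gsta4* was 4.06, 2.53 and 3.23 against 0.590, 0.723 and 0.658. In each of these pairs the order of both genes was turned or brought level in the mutant. *Gstp1* over *Gstp2* was 9.25 to 12.0 against 3.96 to 5.42, *Txnrd1* over *Txnrd3* was 3.12 to 3.86 against 1.45 to 1.89, and *Gclc* over *Gclm* was 0.287 to 0.566 against 0.0741 to 0.136. No ratio overlapped between the groups, and for each the two-sided p of an exact permutation test was 0.10, the smallest that 3 against 3 samples allow, so that none could pass 0.05. The pairs were picked for their difference, and these ratios are a description.

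**Figure D4:**
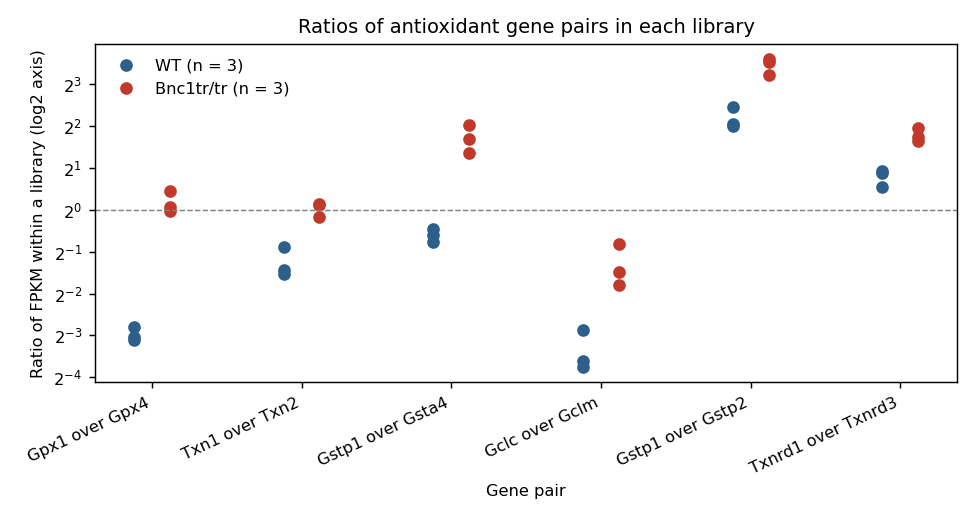
Ratio of the FPKM of 2 members within a library (vertical axis, log2 scale) for 6 pairs (horizontal axis), with a point for each of the 3 *Bnc1*tr/tr (red) and 3 WT (blue) libraries and a dashed line at equal levels. The *Bnc1*tr/tr points lie above the WT points in all 6 pairs, most widely for *Gpx1* over *Gpx4* (0.975 to 1.37 against 0.115 to 0.145).

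The 6 most abundant members (*Sod1*, *Glrx*, *Prdx1*, *Prdx2*, *Gstm5* and *Glrx5*) supplied 78.6% to 85.3% of the members' summed FPKM, and *Gstm5* was the only one of them called. Of the 12 tested members with a mean of at least 100 FPKM, 3 were higher and 1 was lower, while 9.47% and 9.39% of the 1288 tested genes at that level were called higher and lower. *Txn1*, called higher, reached this level only through the *Bnc1*tr/tr libraries (WT mean 75.5 FPKM). *Gsta4*, called lower, had a *Bnc1*tr/tr mean of 99.45 FPKM and reached it through WT. This count is therefore a description. All members together took 1.280%, 1.444% and 1.364% of the FPKM total in *Bnc1*tr/tr and 1.207%, 1.198% and 1.228% in WT.

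*Bnc1*tr/tr replicate 1 stood above the other mutant libraries for 8 of the 43 tested members (*Cat*, *Gpx3*, *Gsr*, *Gss*, *Gsto1*, *Keap1*, *Prdx4* and *Prdx6*), where it exceeded both of them by over 1.5 times. It lay below both by that factor for 3 members. The other *Bnc1*tr/tr libraries stood above for 1 and 2 members and below for 1 and 0. WT replicates 1, 2 and 3 stood above the other WT libraries for 3, 1 and 2 members and below for 2, 0 and 4. Without *Bnc1*tr/tr replicate 1, 16 members were called higher and 4 lower, against 18.6% and 4.98% of all tested genes.

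Scaling mattered for the balance of directions. FPKM as deposited put the median of all tested genes at 0.15, and upper-quartile, median-ratio and quantile scaling moved it to -0.09, -0.05 and -0.10. Under these the members split into 13 higher and 6 lower, 13 and 5, and 13 and 4, in place of 16 and 2. The share of all tested genes called higher went from 24.1% to 17.5%, 18.5% and 15.5%, and the share called lower from 7.68% to 17.0%, 14.5% and 17.8%. Of the 18 called members, 13 were called under all 3 scalings. *Gclm*, not called on the deposited values, was called lower under each (log2 fold change -0.74, -0.69 and -0.77).

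**Figure D5:**
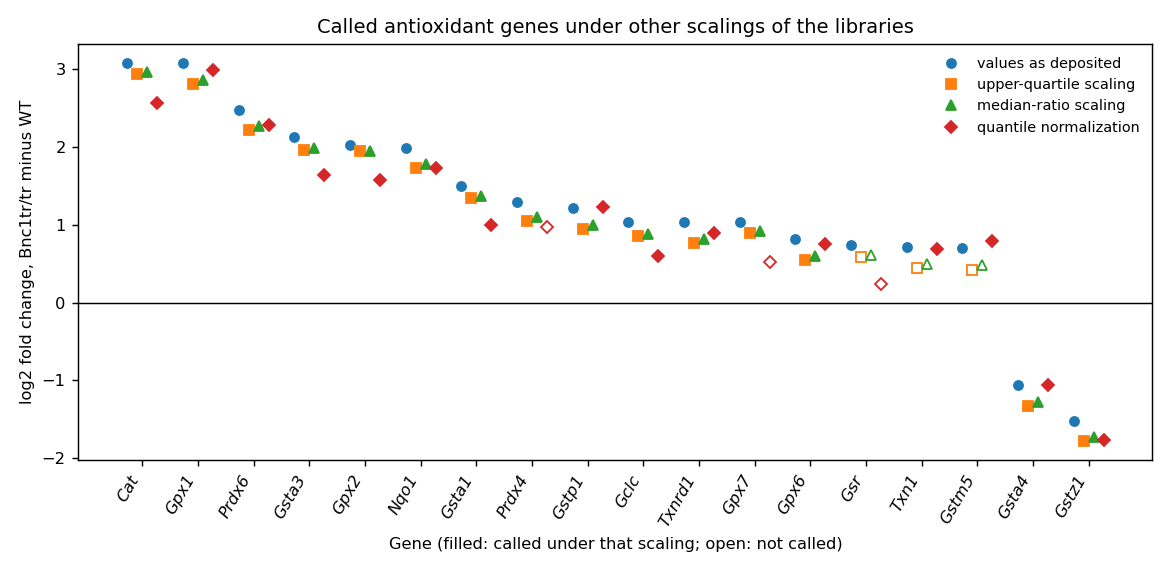
Log2 fold change (vertical axis, *Bnc1*tr/tr minus WT) of the 18 called members (horizontal axis) on the deposited FPKM and under 3 other scalings, with filled markers where the gene was called and open markers where it was not. No point crosses 0, and the open markers belong to *Prdx4*, *Gpx7*, *Gsr*, *Txn1* and *Gstm5*.

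A wider list of 89 genes that serve these systems, such as cystine transport, selenoprotein synthesis, NADPH supply, metallothioneins, methionine sulfoxide reductases and disulfide isomerases, was read beside the members. Of the 76 that could be tested, 21 were higher and 7 lower (36.8% called, against 31.8% of all tested genes), with a median log2 fold change of 0.17. Of the 21, *Mt2*, *Msrb2*, *Hmox1*, *Sesn1*, *Tmx3*, *Tmx4* and *Ero1l* had WT means under 1 FPKM and passed the limit on low values only through the *Bnc1*tr/tr libraries, so this count too is a description. *Mt1* and *Mt2*, the metallothioneins, which bind metals and scavenge radicals, rose most among those with a mean of at least 10 FPKM, together with *Msrb2*, although *Mt2* and *Msrb2* reached that mean only through the *Bnc1*tr/tr libraries. *Mt1* measured 96.65, 140.50 and 94.63 FPKM in *Bnc1*tr/tr and 6.09, 4.66 and 6.08 FPKM in WT (log2 fold change 4.06 ± 0.21, adjusted p = 3.1e-06). *Mt2* measured 47.15, 87.82 and 71.16 FPKM against 0, 1.38 and 0.27 FPKM (log2 fold change 5.55 ± 0.34, adjusted p = 7.4e-06). *Msrb2*, a mitochondrial methionine sulfoxide reductase, measured 20.55, 26.04 and 25.82 FPKM against 0.48, 0.25 and 0 FPKM (log2 fold change 4.35 ± 0.20, adjusted p = 2.3e-06). The mutant values of these 3 genes were many times the WT values in every library.

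*Glo1*, the glyoxalase that uses glutathione to clear methylglyoxal, measured 37.55, 46.21 and 48.02 FPKM against 15.66, 15.13 and 14.34 FPKM (log2 fold change 1.48 ± 0.17, adjusted p = 0.00023). In the other direction, *Eefsec*, the elongation factor that brings selenocysteine to the ribosome, measured 14.03, 13.23 and 12.36 FPKM against 32.04, 24.67 and 15.50 FPKM (log2 fold change -0.76 ± 0.25, adjusted p = 0.043). *Ccs*, the copper chaperone of SOD1, measured 13.26, 18.86 and 22.70 FPKM against 34.96, 30.94 and 24.41 FPKM (log2 fold change -0.71 ± 0.23, adjusted p = 0.043). *Chac2*, which degrades glutathione, and *Pdia3*, a disulfide isomerase of the endoplasmic reticulum, fell by 0.76 and 0.80 on the log2 scale (adjusted p = 0.023 and 0.028). For *Eefsec*, *Ccs* and *Pdia3* the lowest WT library lay within 2 FPKM of the highest *Bnc1*tr/tr library. *Slc7a11*, the cystine carrier that feeds glutathione synthesis, was not called, at 22.04, 23.51 and 19.53 FPKM against 16.98, 15.22 and 20.39 FPKM (log2 fold change 0.30, adjusted p = 0.23), and was named after its values had been seen. *Hmox1*, heme oxygenase, was likewise named afterwards, at 25.06, 9.27 and 16.57 FPKM against 0.69, 0.31 and 0 FPKM (log2 fold change 3.68, adjusted p = 6.4e-05). The mutant libraries again lay above all WT libraries, with replicate 1 the highest. Without *Bnc1*tr/tr replicate 1, 18 of the 76 genes were called (23.7%), a share like that of all tested genes in the same setting (23.6%).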

How the data were processed

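The authors deposited 1 table per library of FPKM per gene, rounded to 2 decimals, with no read counts. The submitters' processing notes name HISAT2 2.0.4, Bowtie2 2.2.5, RSEM 1.2.12 and GRCm38.p6, and the annotation and any gene filter are not given in the sources used here. Because FPKM divides by a library's total, abundant transcripts move all other values, and PCR-amplified cDNA carries no molecular identifiers. Floors cover counting error only.

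The comparison used log2(FPKM + 1) of the 10560 genes averaging 1 FPKM or more and limma 3.58.1 (R 4.3.3), with Benjamini-Hochberg adjustment over all of them. The adjusted p threshold of 0.05 and the fold threshold of 0.5 are those of the study. Fold changes on this scale understate the change of low genes. The test was checked on simulated data. Depth was estimated from the spacing of low FPKM values, and estimates from separate sets of genes differed by at most 5.52%. Shared 31-base words, overlaps and coding sequences came from GENCODE M21 and promoters from RefSeq.

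The members, the lists and the tests were chosen with earlier results of these data known. Named were the called members, the most abundant member of each role, *Gpx4*, the 3 members with the smallest adjusted p that passed only one threshold, and the 4 largest rises and falls of the wider list with a mean of at least 10 FPKM. Other members are given by their values, and *Nfe2l2*, *Keap1* and *Gstp2* were added after their values were seen. Alternatives were other scalings, pseudocounts, limits on low values, variance models, fold thresholds, a replicate block and leaving out each library.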

Additional observations from a re-analysis of the deposited data

How the results depend on the processing

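Under the 14 alternatives with a fit of their own, the 18 called members had 245 values, as 7 of them were not tested at a minimum mean of 5 FPKM. Of these values, 217 kept direction and call and 28 kept direction only. The call was kept in every one of these alternatives that tested them for 12 members (*Cat*, *Gclc*, *Gpx1*, *Gpx6*, *Gsta1*, *Gsta3*, *Gsta4*, *Gstp1*, *Gstz1*, *Nqo1*, *Prdx6* and *Txnrd1*). It was lost at least once for *Gsr*, *Gstm5*, *Prdx4*, *Txn1*, *Gpx2* (adjusted p = 0.054 with no limit on low values) and *Gpx7* (adjusted p = 0.089 with quantile scaling). With a log2 fold change over 1 in place of 0.5, *Gpx6*, *Gsr*, *Gstm5* and *Txn1* were not called.

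With a minimum mean of 5 FPKM, 9 members were called higher of the 33 tested (27.3%, against 20.6% of all tested genes), since fewer genes enter. Of the 9, *Prdx4* (WT mean 4.677 FPKM) passed this limit only through the *Bnc1*tr/tr libraries, so the count is a description. Members called lower numbered 6 with upper-quartile, 5 with median-ratio and 4 with quantile scaling (17.0%, 14.5% and 17.8% of all tested genes). They numbered 2 to 4 when single libraries were left out, against 3.96% to 9.86% of all tested genes. Members called numbered 15 to 20 and members called higher 13 to 16 when single libraries were left out. With a log2 fold change over 1, 14 of the 76 tested genes of the wider list were called, while 15.9% of all tested genes were. When single libraries were left out, 18 to 28 were called, against 22.0% to 33.5% of all tested genes. Among members not called, *Txn2* was called lower with a minimum mean of 5 FPKM, upper-quartile and median-ratio scaling, trend and robust variances, the replicate block (adjusted p = 0.035) and without WT replicate 3. *Gstt4* was called higher with the block (adjusted p = 0.011), without *Bnc1*tr/tr replicate 1 (1.17, adjusted p = 0.019) and without WT replicate 3, and *Gclm* lower under the 3 scalings and without *Bnc1*tr/tr replicate 3.

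Directions that turned belonged to members that were not called. With upper-quartile and median-ratio scaling, *Gpx4* was at -0.27 and -0.22, *Prdx1* at -0.094 and -0.039, and *Sod1* at -0.21 and -0.16, and with quantile scaling *Keap1* was at -0.22. When single libraries were left out, values ran from -0.128 to 0.089 for *Gpx4*, -0.06 to 0.198 for *Sod1*, -0.232 to 0.013 for *Glrx*, -0.182 to 0.045 for *Gstp2* and -0.312 to 0.004 for *Nfe2l2*. The cause was not tested.

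Same-numbered libraries of both groups correlated in their deviations at 0.28, -0.03 and 0.12, so the numbers were not taken to pair them. With the replicate number as a block, 20 members were called (17 higher, 3 lower), against 35.4% of all tested genes.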
